A study of Homo sapiens with 12 samples.

Results

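The 8 transcription factors of gastric and intestinal lineage, CDX1, CDX2, HNF4A, GATA4, GATA6, FOXA1, FOXA2 and SOX2, were described across the 6 sorted populations of 3 gastric cancer cell lines. They were taken by gene symbol, with earlier results of these data known, and each had a row among the 34595 genes with a value. KATO-III, SNU-216 and SNU-601 are established lines of human gastric cancer, all kept in RPMI1640 medium with calf serum and given no further treatment. Each line was stained with an antibody to CD133/1 (AC133), a membrane glycoprotein encoded by PROM1, and the brightest 10% (CD133+) and the dimmest 6% (CD133-) of cells were collected by flow cytometry. RNA of each population was hybridized on 2 Illumina HT-12 v3 arrays, so that 12 arrays, 6 of each fraction, were compared. The text on the study's design names SNU201 where the labels of the arrays name SNU-216, and the labels were followed. The labels do not say whether the arrays of a population came from separate sorts or cultures. The p-values within and between lines and of the interaction therefore measure only the spread between these arrays, which may be technical. Those of the fractions over the 3 lines also take in how unequal the differences of the lines are, and treat the 12 arrays as independent.

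These factors lay out the epithelium of the gut along its length. FOXA1 and FOXA2 are forkhead proteins that open chromatin of the early endoderm, and GATA4, GATA6 and HNF4A act with them in the stomach and the intestine. CDX1 and CDX2 are homeobox proteins of the intestine, whereas SOX2 is a high-mobility-group protein of the foregut, and CDX2 is known from the intestinal metaplasia of the stomach.

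Levels are background-subtracted intensities in arbitrary units, which can lie below 0. Any intensity below 32.7 was raised to this floor before log2 was taken, a number that equals the distance from 0 of the 1st percentile of the intensities, and intensities raised in this way have no order. Tests were made for genes over the floor on 2 or more arrays, that is 20147 genes and 7 of the 8 factors. A gene was called at a Benjamini-Hochberg adjusted p under 0.05 over all tested genes in limma. Each array had 16320 to 16474 genes over the floor, and arrays of a population correlated with r between 0.993 and 0.995 across genes. PROM1, at 4677 to 9513 on the CD133+ and 1315 to 4493 on the CD133- arrays, was higher on each CD133+ array than on each CD133- array of its line, and no library went against its label. The 6 epithelial markers EPCAM, KRT8, KRT18, KRT19, CDH1 and CLDN4 lay above the floor on all 12 arrays.

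SNU-216 stood apart from the other lines for these factors. Between KATO-III and SNU-216, CDX2, FOXA1, FOXA2 and GATA6 were called and all were higher in KATO-III. Of all tested genes, 62.0% were called, 30.3% higher and 31.7% lower in KATO-III. Between SNU-216 and SNU-601, the same factors were called and all were lower in SNU-216. Of all tested genes, 56.5% were called, 29.4% higher and 27.1% lower in SNU-216. GATA4 and SOX2 were also called lower in SNU-216 in both comparisons. They were at the floor on all SNU-216 arrays and passed the filter through the other lines, so their direction was fixed by it. HNF4A was also called higher in KATO-III than in either line, but it passed the filter through the 4 KATO-III arrays alone, so that this direction was fixed by the filter. Between KATO-III and SNU-601, 4 of the other 6 were called, SOX2 higher and CDX2, FOXA2 and GATA4 lower in KATO-III, against 58.6%, 28.7% and 29.9% of all tested genes. The median log2 difference of the 7 factors, HNF4A, GATA4 and SOX2 included, was 3.32 for KATO-III minus SNU-216, beside -0.03 over all tested genes. For SNU-216 minus SNU-601 it was -3.41, beside 0.01. GATA4 and SOX2 could not come out higher in SNU-216 in either comparison, nor HNF4A against KATO-III. The medians are thus partly fixed by the filter and are a description only. Each line stands for itself alone, and the comparisons share arrays.

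The fractions differed less. In KATO-III, 4 of the 7 factors were called, HNF4A and SOX2 higher and CDX2 and FOXA2 lower in CD133+ cells, against 39.3% of all tested genes called, 18.7% higher and 20.6% lower. In SNU-216, HNF4A, GATA4 and SOX2 were at the floor on all 4 arrays, and of the other 4, FOXA1 was called higher and FOXA2 lower, against 28.6% (14.6% higher and 14.0% lower). In SNU-601, HNF4A was at the floor on all 4 arrays, and 2 of the other 6 were called, FOXA1 higher and CDX2 lower, against 16.4% (8.59% higher and 7.78% lower). Over the 3 lines with line as a block, CDX2 alone was called, lower in CD133+ cells, against 4.73% (2.62% higher and 2.11% lower). The interaction of line and fraction was called for 3 of 7, FOXA1, FOXA2 and HNF4A, against 44.4%, but HNF4A was at the floor on all arrays of SNU-216 and SNU-601, so a difference between lines in the fraction difference was measured for FOXA1 and FOXA2 alone. In bulk RNA of a sorted population, fewer cells that express a gene and less RNA of it per cell cannot be told apart.

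**Figure D1:**
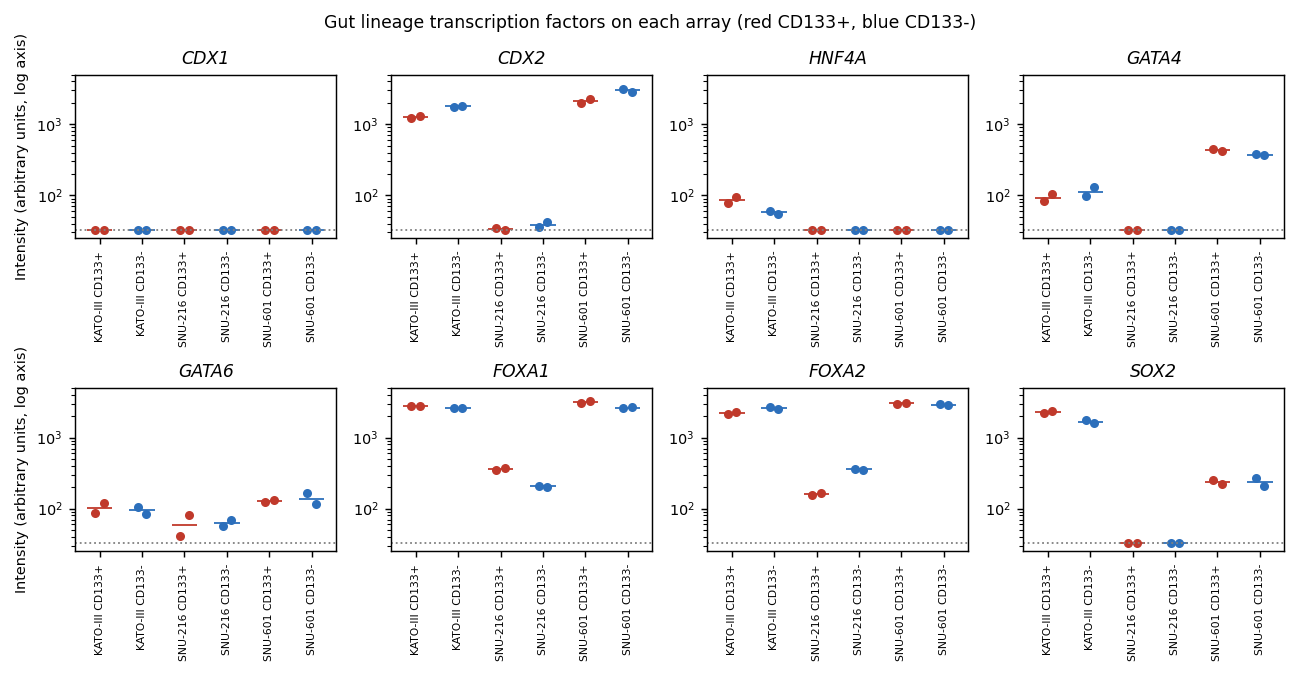
Intensity of each factor on each array (arbitrary units, log axis) in the 6 populations; points are arrays, red for CD133+ and blue for CD133-, horizontal bars are the means of the 2 arrays on the log2 scale, and the dotted line is the floor of 32.7, to which lower values were set. CDX1 lies at the floor on all 12 arrays, and SNU-216 lies lowest for CDX2, GATA4, FOXA1, FOXA2 and SOX2.

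CDX1, the homeobox factor of the intestine that is related to CDX2, was not above the floor on any array. Its intensities ran from -33.0 in KATO-III CD133- to 8.00 in SNU-601 CD133+, so it was not tested and no order of the populations can be given.

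CDX2, a homeobox factor that directs intestinal identity, had the widest range between arrays of the 8 factors on the log2 scale (6.60, with low values set to the floor). In KATO-III it measured 1223 and 1306 on the CD133+ arrays and 1758 and 1824 on the CD133- arrays. In SNU-601 it measured 1992 and 2249 on the CD133+ arrays and 3168 and 2822 on the CD133- arrays. In SNU-216 it measured 35.2 and 8.65 on the CD133+ arrays and 35.9 and 41.8 on the CD133- arrays. Thus CD133- arrays were higher than CD133+ arrays in each line, without overlap, whereas in SNU-216 all values were near or under the floor. Arrays of 2 fractions did not overlap within a line for 63.1% of all tested genes in KATO-III, 54.9% in SNU-216 and 49.3% in SNU-601.

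In CD133+ cells CDX2 was 1.42-fold lower in KATO-III (log2 difference -0.50, SE 0.10, adjusted p = 0.0037) and 1.41-fold lower in SNU-601 (-0.50, SE 0.10, adjusted p = 0.0106). The difference in SNU-216 was not called (-0.19, adjusted p = 0.207). The interaction of line and fraction was not called either (adjusted p = 0.161), so the differences of the 3 lines were not shown to be unequal, although with a floor of 100, which sets all SNU-216 arrays to it, the interaction was called (adjusted p = 0.00467). Over the lines CDX2 was 1.32-fold lower in CD133+ cells (-0.40, SE 0.09, adjusted p = 0.0321). That call was lost when any of 8 arrays was left out (the 4 of KATO-III, replicate 1 of SNU-601 CD133+, both of SNU-601 CD133- and replicate 2 of SNU-216 CD133-), with adjusted p up to 0.0841 and log2 differences between -0.41 and -0.36. It was also lost when the arrays of a population were averaged first (adjusted p = 0.796) or the population was a random block (adjusted p = 0.288). Averaging called 0 and the random block 1 of all tested genes, and PROM1 itself had an adjusted p of 0.796 with averaging. Losing a call in these settings thus says little about CDX2 itself. With an array left out, 217 to 851 of all tested genes were called over the lines, against 953 with all 12. The call in SNU-601 was lost without replicate 1 of CD133+ (adjusted p = 0.0725) or replicate 1 of CD133- (adjusted p = 0.0736), and with a floor of 16 neither KATO-III (adjusted p = 0.221) nor SNU-601 (adjusted p = 0.345) was called. A direction lower in CD133+ in each of the 3 lines was seen for 12.3% of all tested genes.

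Between lines, CDX2 was 41.5-fold higher in KATO-III than in SNU-216 (log2 difference 5.37, SE 0.07, adjusted p = 9.43e-12) and 69.4-fold higher in SNU-601 than in SNU-216, with replicate 1 of SNU-216 CD133+ and both CD133- arrays just above the floor and replicate 2 of CD133+ set to it. It was 1.67-fold lower in KATO-III than in SNU-601 (-0.74, SE 0.07, adjusted p = 1.33e-05). The order of the populations ran from SNU-601 CD133- over SNU-601 CD133+, KATO-III CD133- and KATO-III CD133+ to SNU-216 CD133- and SNU-216 CD133+. SNU-601 CD133+ and KATO-III CD133-, neighbours in that order, were not called different (0.24, SE 0.10), nor were the SNU-216 fractions.

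The promoter of CDX2 is shown because CDX2 was the factor called over the lines. The 250 bases before the start of CDX2 (RefSeq, GRCh38.p14, chr13:27969316-27969565, minus strand) were read 5′ to 3′, with capitals for matches, on either strand, to the short motifs of the factors described here. The motifs were TTTATG for CDX, TGTTTAC and TATTTAC for FOXA, AGATAA and TGATAA for GATA, CAAAGTCCA for HNF4, and ACAAAG and ACAATG for SOX, and no matches overlapped in the promoters shown.
CDX2: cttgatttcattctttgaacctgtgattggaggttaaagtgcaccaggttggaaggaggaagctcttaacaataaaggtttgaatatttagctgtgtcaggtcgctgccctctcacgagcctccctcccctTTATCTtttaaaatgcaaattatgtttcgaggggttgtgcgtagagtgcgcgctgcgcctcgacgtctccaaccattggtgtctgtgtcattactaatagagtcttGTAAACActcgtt
The window held TGTTTAC on the opposite strand at 13 bases before the start, and AGATAA on the opposite strand at 119 bases. Of 35116 promoters of this length, 2.98% held TGTTTAC and 9.17% held AGATAA, and a match is a string of letters and not a measured binding site. RefSeq entries were found for CDX2, HNF4A, GATA6, FOXA1 and SOX2.

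HNF4A, a nuclear receptor of the liver, stomach and intestine that is transcribed from separate promoters, was above the floor on the 4 arrays of KATO-III alone. It measured 76.9 and 93.3 in KATO-III CD133+ and 60.8 and 55.3 in KATO-III CD133-. The 4 arrays of SNU-216 lay between 0.817 and 10.9 and those of SNU-601 between 18.1 and 25.7, all under the floor. The KATO-III fractions did not overlap, and CD133+ cells were 1.46-fold higher (log2 difference 0.55, SE 0.12, adjusted p = 0.0064). With an offset of 100 and no floor the difference was 0.23 and was not called (adjusted p = 0.125), nor was it with the 4 KATO-III arrays fitted alone (adjusted p = 0.0627). KATO-III was at least 2.14-fold higher than either of the other lines, for which no fold between them can be given.

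GATA4, a zinc-finger factor of the stomach and the upper intestine, was called between the lines and not between the fractions. It measured 443 and 424 in SNU-601 CD133+ and 377 and 372 in SNU-601 CD133-. In KATO-III it measured 83.3 and 103 in CD133+ and 96.3 and 132 in CD133-, and in SNU-216 its 4 arrays lay between -24.5 and 25.8, under the floor. GATA4 passed the filter through KATO-III and SNU-601, so the place of SNU-216 below them was fixed. The fractions overlapped in KATO-III and did not in SNU-601, where CD133+ was higher, beside 49.3% of all tested genes without overlap in SNU-601. SNU-601 was 3.94-fold higher than KATO-III (log2 difference of KATO-III minus SNU-601 -1.98, SE 0.12, adjusted p = 5.03e-07) and at least 12.3-fold higher than SNU-216, and KATO-III was at least 3.13-fold higher than SNU-216. With a floor of 100 the difference between KATO-III and SNU-216 was 0.11 and was not called (adjusted p = 0.222). The difference between fractions was -0.29 (SE 0.17, adjusted p = 0.227) in KATO-III and 0.21 (SE 0.17, adjusted p = 0.493) in SNU-601, and without replicate 1 of KATO-III CD133- the former was -0.51 and was called (adjusted p = 0.0396).

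GATA6, the related factor found along most of the gut, was above the floor on all 12 arrays and varied least of the factors above it on all arrays. It measured 86.7 and 121 in KATO-III CD133+ and 106 and 84.7 in KATO-III CD133-. In SNU-216 it measured 41.7 and 81.2 in CD133+ and 56.6 and 69.3 in CD133-, and in SNU-601 it measured 123 and 133 in CD133+ and 166 and 116 in CD133-. The fractions overlapped in each line, and no pair of neighbours in the order of the 6 populations was called different. The log2 differences between the fractions were 0.11 in KATO-III, -0.11 in SNU-216 and -0.12 in SNU-601, each with an SE of 0.32, and each changed sign when an array of its line was left out. Between lines, SNU-216 was 2.20-fold lower than SNU-601 (-1.14, SE 0.23, adjusted p = 0.0019). KATO-III was 1.63-fold higher than SNU-216 (0.71, SE 0.23, adjusted p = 0.0234), which was not called without replicate 2 of KATO-III CD133+ (adjusted p = 0.103), replicate 1 of KATO-III CD133- (0.0848), replicate 1 of SNU-216 CD133+ (0.0736) or replicate 1 of SNU-216 CD133- (0.0831), nor with no filter on dim genes (0.0819), and with a floor of 100 the difference was 0.09 (adjusted p = 0.476). KATO-III and SNU-601 were not called different (-0.43, SE 0.23, adjusted p = 0.138), but were with a floor of 100 (-0.32, adjusted p = 0.0220).

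FOXA1, a forkhead factor that binds closed chromatin, was higher in CD133+ than in CD133- cells of each line. It measured 2794 and 2815 in KATO-III CD133+ and 2579 and 2630.4 in KATO-III CD133-. In SNU-601 it measured 3025 and 3234 in CD133+ and 2630.4 and 2651 in CD133-, and in SNU-216 it measured 344 and 372 in CD133+ and 211 and 199 in CD133-. The fractions did not overlap in any line, and SNU-216 lay under the other lines throughout. CD133+ cells were 1.74-fold higher in SNU-216 (log2 difference 0.80, SE 0.06, adjusted p = 2.08e-05) and 1.18-fold higher in SNU-601 (0.24, SE 0.06, adjusted p = 0.0186). The KATO-III difference was not called (0.11, SE 0.06, adjusted p = 0.177). The interaction was called (adjusted p = 0.000327), so the size of the difference was not the same in the lines.

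Over the lines the FOXA1 difference missed the threshold (0.38, SE 0.10, adjusted p = 0.0573), and it was called with a floor of 100 (adjusted p = 0.0487), an offset of 100 (0.0485), genes above the floor on all 12 arrays (0.0413) or median centring (0.0405). The call in SNU-601 was lost without replicate 2 of CD133+ (adjusted p = 0.101), replicate 1 of CD133- (0.0791) or replicate 2 of CD133- (0.0697), while that in SNU-216 was kept with each of the 12 arrays left out. FOXA1 was 9.98-fold higher in KATO-III (3.32, SE 0.04, adjusted p = 4.83e-12) and 10.6-fold higher in SNU-601 than in SNU-216, and KATO-III and SNU-601 were not called different (-0.09, SE 0.04, adjusted p = 0.0849). FOXA1 and CDX2 were the factors with the same direction in each of the 3 lines, as were 22.1% of all tested genes.

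The promoter of FOXA1 (GRCh38.p14, chr14:37595250-37595499, minus strand) is shown because its fractions differed in the same direction in the lines and by unequal amounts.
FOXA1: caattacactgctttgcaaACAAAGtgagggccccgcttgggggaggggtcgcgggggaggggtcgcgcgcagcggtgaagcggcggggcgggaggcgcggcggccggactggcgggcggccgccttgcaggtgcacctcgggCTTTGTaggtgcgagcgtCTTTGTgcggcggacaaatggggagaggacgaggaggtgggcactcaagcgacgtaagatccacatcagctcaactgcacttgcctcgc
It held ACAAAG at 231 bases before the start and, on the opposite strand, at 107 and 89 bases, a motif that was found in 13.7% of promoters.

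FOXA2, the paralog of FOXA1, did not follow it between the fractions. It measured 155 and 167 in SNU-216 CD133+ and 360.3 and 352 in SNU-216 CD133-. In KATO-III it measured 2152 and 2249.8 in CD133+ and 2720.2 and 2498 in CD133-, and in SNU-601 it measured 2998 and 3084 in CD133+ and 2945.5 and 2828 in CD133-. CD133+ arrays were thus lower than CD133- arrays without overlap in SNU-216 and KATO-III, and higher without overlap in SNU-601. CD133+ cells were 2.21-fold lower in SNU-216 (log2 difference -1.15, SE 0.06, adjusted p = 5.08e-06), which was the largest difference between fractions among the 8 factors, and 1.18-fold lower in KATO-III (-0.24, SE 0.06, adjusted p = 0.00979). The SNU-601 difference was not called (0.08, SE 0.06, adjusted p = 0.479). The interaction was called (adjusted p = 2.75e-05), and over the lines the difference of -0.44 (SE 0.16) was not (adjusted p = 0.135).

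The FOXA2 call in SNU-216 was kept with each of the 12 arrays left out, and that in KATO-III was lost without replicate 1 of CD133+ (adjusted p = 0.0581) or replicate 1 of CD133- (adjusted p = 0.0660). FOXA2 was 10.00-fold higher in KATO-III (3.32, SE 0.04, adjusted p = 6.7e-12) and 12.4-fold higher in SNU-601 than in SNU-216, and 1.24-fold lower in KATO-III than in SNU-601 (-0.31, SE 0.04, adjusted p = 0.000156). SNU-601 CD133- and KATO-III CD133-, neighbours in the order of FOXA2, were not called different (0.15, SE 0.06). In SNU-216 the FOXA1 and FOXA2 differences ran in opposite directions.

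**Figure D2:**
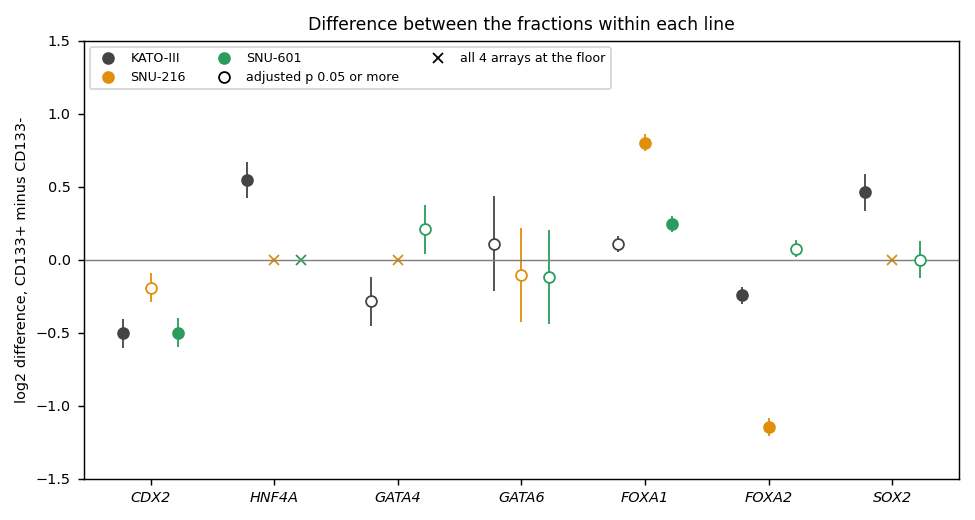
Log2 difference between CD133+ and CD133- cells for each tested factor in each line, with the standard error of the limma fit; filled points had an adjusted p under 0.05 and crosses mark factors at the floor on all 4 arrays of the line. In SNU-216 FOXA1 stands at 0.80 and FOXA2 at -1.15, and CDX2 stands under 0 in each line.

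SOX2, a high-mobility-group factor of the foregut and the stomach, was highest in KATO-III. It measured 2245 and 2366 in KATO-III CD133+ and 1741 and 1609 in KATO-III CD133-. In SNU-601 it measured 254 and 223 in CD133+ and 272 and 209 in CD133-, and in SNU-216 its 4 arrays lay between -6.07 and 2.09, under the floor. The KATO-III fractions did not overlap, whereas those of SNU-601 did. CD133+ cells of KATO-III were 1.38-fold higher (log2 difference 0.46, SE 0.13, adjusted p = 0.0196), and this was lost when any of the 4 KATO-III arrays was left out, with adjusted p between 0.0516 and 0.112 and log2 differences between 0.40 and 0.52. In SNU-601 the difference was 0.00 (SE 0.13). The interaction was not called (adjusted p = 0.0989), but it was without replicate 2 of SNU-601 CD133- (adjusted p = 0.0177) or with an offset of 100 (adjusted p = 0.0182).

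KATO-III was 8.25-fold higher in SOX2 than SNU-601 (log2 difference 3.04, SE 0.09, adjusted p = 4.73e-09) and at least 60.1-fold higher than SNU-216, and SNU-601 was at least 7.29-fold higher than SNU-216. Thus SOX2 was higher and CDX2 lower in KATO-III than in SNU-601, and in KATO-III, CD133+ cells had more SOX2 and less CDX2 than CD133- cells. The promoter of SOX2 (GRCh38.p14, chr3:181711675-181711924, plus strand) is shown because SOX2 had the largest difference between KATO-III and SNU-601.
SOX2: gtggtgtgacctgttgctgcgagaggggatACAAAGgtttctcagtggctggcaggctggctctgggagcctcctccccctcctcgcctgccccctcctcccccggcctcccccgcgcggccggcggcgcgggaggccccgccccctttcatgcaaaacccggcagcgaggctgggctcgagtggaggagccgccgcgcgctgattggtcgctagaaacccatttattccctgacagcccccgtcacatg
It held ACAAAG at 220 bases before the start.

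The signal-to-noise ratio (SNR), which the study used to choose genes, was computed here from the 6 arrays of each fraction and subtracts the mean of the 6 CD133- arrays from that of the 6 CD133+ arrays and divides by the sum of the 2 SDs. On linear intensities, 0 of the 8 factors passed 1 or -1, where 0.96% of all genes did. Among the 7 tested factors the ratios ran from -0.21 for CDX2 to 0.11 for FOXA1, and PROM1 had 1.40. The ratio was also computed within each line from 2 arrays a fraction and then averaged over the lines. In that form 5 of the 8 passed, CDX2, GATA4, FOXA1, FOXA2 and SOX2, where 33.4% of all genes did. For GATA4 and SOX2 that average includes SNU-216 arrays that are all under the floor. For CDX2 it includes replicate 2 of SNU-216 CD133+, under the floor at 8.65.

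Other transcription factors of the gut endoderm, 26 genes of which 22 were tested, were compared for context. In CD133+ cells 3 rose and 9 fell in KATO-III, 2 rose and 4 fell in SNU-216, and 1 rose and 3 fell in SNU-601, where 39.3%, 28.6% and 16.4% of all tested genes were called in either direction, with median log2 differences of -0.26, 0.00 and -0.04 beside 0.00 over all tested genes. The strongest calls in KATO-III were KLF5, a Krüppel-like factor of crypt cells (log2 difference 1.55, SE 0.31, adjusted p = 0.00374, with replicate 1 of CD133- under the floor at 10.9 and replicate 2 at 74.6), and ONECUT2 (-1.13, SE 0.14, adjusted p = 0.000213, with both CD133+ arrays under the floor). ONECUT2 passed the filter through CD133- arrays alone, so its fall, counted among the 9, was fixed by the filter. In SNU-216 these were KLF4, a Krüppel-like factor of differentiating epithelium (0.52, SE 0.13, adjusted p = 0.0154), and MNX1, a homeobox factor (-1.13, SE 0.10, adjusted p = 8.82e-05). MNX1 had the opposite direction in SNU-601 (0.64, SE 0.10, adjusted p = 0.0038), where SOX21, a relative of SOX2, had the largest fall (-0.99, SE 0.23, adjusted p = 0.0197). Over the lines, ELF3, an epithelial ETS factor, was the 1 call (-0.54, SE 0.09, adjusted p = 0.0157), and it is named after its values were seen. It was not called with the population as a random block (adjusted p = 0.177) or with the arrays of a population averaged (adjusted p = 0.796). Those settings called 1 and 0 of all tested genes.

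Between lines, 18 of the 22 were higher and 2 lower in KATO-III than in SNU-216, beside 30.3% and 31.7% of all tested genes. Against SNU-601, 3 were higher and 13 lower in SNU-216, beside 29.4% and 27.1%. Some of the 22, such as FOXA3, PDX1 and HNF4G, were at the floor on all SNU-216 arrays and could not be called higher there. Between KATO-III and SNU-601, 12 were higher and 7 lower in KATO-III, beside 28.7% and 29.9% of all tested genes. FOXA3, the third gene of the FOXA family, measured between 1679 and 3375 in KATO-III, was under the floor on all SNU-216 arrays and was at least 72.8-fold higher in KATO-III and at least 238-fold higher in SNU-601 than in SNU-216. GATA5, a relative of GATA4 and GATA6, was above the floor in SNU-601 alone, at least 51.3-fold higher than in KATO-III, and passed the filter through that line. FOXA3 was thus lowest in SNU-216, as FOXA1 and FOXA2 were.

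Genes of intestinal differentiation fell in CD133+ cells of KATO-III and SNU-601 more often than they rose. Of 23 with a row, 14 were tested, and 10 fell and 1 rose in KATO-III (median log2 difference -0.97), 6 fell and 0 rose in SNU-601 (-0.32), and 1 fell and 0 rose in SNU-216 (0.00), where 20.6%, 7.78% and 14.0% of all tested genes fell. GUCY2C and KRT20, counted among the 10, passed the filter through CD133- arrays alone. Their falls in KATO-III (-1.92 and -2.87) were fixed by the filter, and the median includes them. REG4, a secreted lectin of enteroendocrine and goblet cells, measured 112 and 103 in KATO-III CD133+ and 1477 and 1518 in KATO-III CD133-, and was 14.0-fold lower in CD133+ cells (-3.81, SE 0.06, adjusted p = 9.95e-09). VIL1, the brush border protein villin, was the gene that rose in KATO-III (0.23, SE 0.08, adjusted p = 0.0431). GPA33, a surface antigen of the intestine, fell most in SNU-601 (-1.30, SE 0.19, adjusted p = 0.00259) and was the 1 call over the lines (-0.82, SE 0.20, adjusted p = 0.0401). That call was lost with the population as a random block (adjusted p = 0.281) or with arrays averaged (adjusted p = 0.796), where 1 and 0 of all tested genes were called. ANPEP, a brush border peptidase, was the gene that fell in SNU-216 (-0.63, SE 0.10, adjusted p = 0.00133).

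Genes of gastric differentiation also fell more often than they rose. Of 20 with a row, 14 were tested, and 6 fell and 1 rose in KATO-III (median -0.29), 5 fell and 0 rose in SNU-601 (-0.12), and 1 fell and 0 rose in SNU-216 (0.00), beside 20.6%, 7.78% and 14.0% of all tested genes that fell. MUC5AC, the mucin of gastric surface cells, measured 219 and 168 in KATO-III CD133+ and 2011 and 2341 in KATO-III CD133-, and fell in KATO-III (-3.50, SE 0.25, adjusted p = 1.16e-05) and in SNU-601 (-2.08, SE 0.25, adjusted p = 0.00107). GAST, which encodes gastrin, was the gene that rose in KATO-III (1.05, SE 0.18, adjusted p = 0.00156, with replicate 2 of CD133- under the floor), and MUC1, a membrane mucin, was the gene that fell in SNU-216 (-0.38, SE 0.05, adjusted p = 0.000764). Over the lines 3 fell, MUC5AC, TFF1 and LIPF, of which the latter pair are named after their values were seen. LIPF was dim, between 2.64 and 101 on the arrays, and was not called within any line. With a floor of 100 its difference over the lines was -0.0047 and was not called (adjusted p = 0.937). None of the 3 was called with the population as a random block (adjusted p = 0.191, 0.204 and 0.435) or with the arrays of a population averaged (adjusted p = 0.796 each). Of all tested genes, 1 and 0 were called in those settings.

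**Figure D3:**
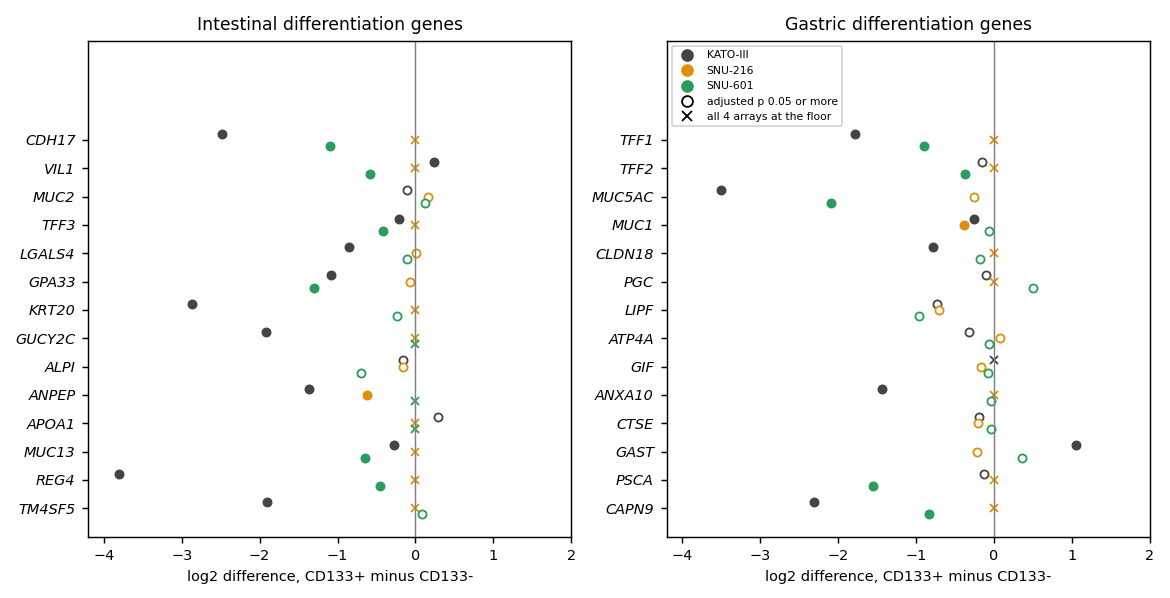
Log2 difference between CD133+ and CD133- cells for the tested genes of intestinal (left) and gastric (right) differentiation in each line; filled points had an adjusted p under 0.05 and crosses mark genes at the floor on all 4 arrays of the line. REG4 in KATO-III stands at -3.81 and MUC5AC at -3.50, and most genes of SNU-216 are crosses at 0.

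Most of the differentiation genes called between lines were lower in SNU-216 than in the other lines, while GAST, at 6628 to 8451 in SNU-216 and 30.8 to 98.6 elsewhere, was higher there. Of 14 intestinal genes, 11 were higher and 1 lower in KATO-III than in SNU-216, and 1 was higher and 8 lower in SNU-216 than in SNU-601. Of 14 gastric genes, 10 were higher and 2 lower in KATO-III than in SNU-216, and 1 was higher and 10 lower in SNU-216 than in SNU-601. Of all tested genes, 30.3% were higher and 31.7% lower in KATO-III than in SNU-216. Between SNU-216 and SNU-601, 29.4% were higher and 27.1% lower in SNU-216. The intestinal genes CDH17, VIL1, TFF3, KRT20, GUCY2C, APOA1, MUC13, REG4 and TM4SF5 were at the floor on all SNU-216 arrays. So were the gastric genes TFF1, TFF2, CLDN18, PGC, ANXA10, PSCA and CAPN9. These genes passed the filter through the other lines and could not be called higher in SNU-216. TFF3, the trefoil factor of intestinal goblet cells, was at least 321-fold higher in KATO-III than in SNU-216, and TFF2, the trefoil factor of gastric gland cells, at least 400.1-fold higher. REG4 was 34.7-fold lower in KATO-III than in SNU-601 and PGC, which encodes pepsinogen C, 43.2-fold lower, with replicate 2 of KATO-III CD133+ under the floor for PGC. Between KATO-III and SNU-601, 7 of the intestinal genes were higher and 5 lower in KATO-III, whereas 0 of the gastric genes were higher and 10 lower. Of all tested genes, 28.7% were higher and 29.9% lower there.

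Markers of other cell types moved with the fractions. Of 6 leukocyte markers, 4 were over the floor on 2 or more arrays, and the summed intensity of the 6 was 864 to 936 in CD133+ and 1265 to 1334 in CD133- cells of KATO-III, 445 to 501 and 1334 to 1414 in SNU-216, and 1136 to 1264 and 1583 to 1669 in SNU-601. The means of CD14 were 846 and 1222 in CD133+ and CD133- cells of KATO-III, those of LAPTM5 were 312 and 964 in SNU-216, and those of CD68 were 1148 and 1576 in SNU-601. PTPRC and CD3E, which define leukocytes and T cells, were at the floor on all arrays. Of 6 stromal markers, 2 were tested, and the summed intensity of all 6 was 106 to 127 in CD133+ and 765 to 827 in CD133- cells of KATO-III, 54.5 to 65.4 and -22.2 to 14.7 in SNU-216, and at most 104 and 156 in SNU-601. In KATO-III, LUM, which encodes lumican, had means of 78.0 in CD133+ and 763 in CD133- cells. COL1A1 ran the other way, with means of 59.2 in CD133+ and 23.9, under the floor, in CD133- cells. COL3A1, DCN and PDGFRB were at the floor on all arrays. Of 3 endothelial markers, 0 were above the floor on any array. The part of these markers in the differences between the fractions was not tested.

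Genes with the profile most like each factor were found by the root mean square (RMS) difference between centred log2 values over the 12 arrays, as a description that rests on 6 populations of 3 lines. For CDX2 they were UGT1A1, which conjugates bilirubin and shares exons with other UGT1A genes (RMS difference 0.264), LEMD1 (0.268) and PPFIBP2 (0.284). For FOXA1 they were KITLG, the ligand of KIT (0.197), STS-1 (0.208) and USMG5 (0.218), and for FOXA2 they were TRNP1 (0.178), SERPINB1, a protease inhibitor (0.220), and CFD, complement factor D (0.236). KITLG had means of 847 and 554 in CD133+ and CD133- cells of KATO-III, 114 and 55.3 in SNU-216, and 914 and 707 in SNU-601, in the same direction as FOXA1 in each line.

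For SOX2 the nearest profiles were FAM129A (0.207), ACPL2 (0.276) and MATN2, a matrix protein (0.346). FAM129A had means of 2153 and 1855 in CD133+ and CD133- cells of KATO-III, 188 and 179 in SNU-601, and was under the floor in SNU-216, as SOX2 was. For GATA4 they were FLRT3 (0.248), SH3TC1 (0.250) and YAF2 (0.322), and for GATA6 they were NAPA (0.193), MAFF (0.235) and SESN2 (0.242). For HNF4A they were LOC100134329 (0.0618), NLF2 (0.0676) and PAGE2B (0.0769), which, like HNF4A, were near or under the floor outside KATO-III. The small values of HNF4A go with the 8 arrays at the floor and cannot be set against those of other factors.

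**Figure D4:**
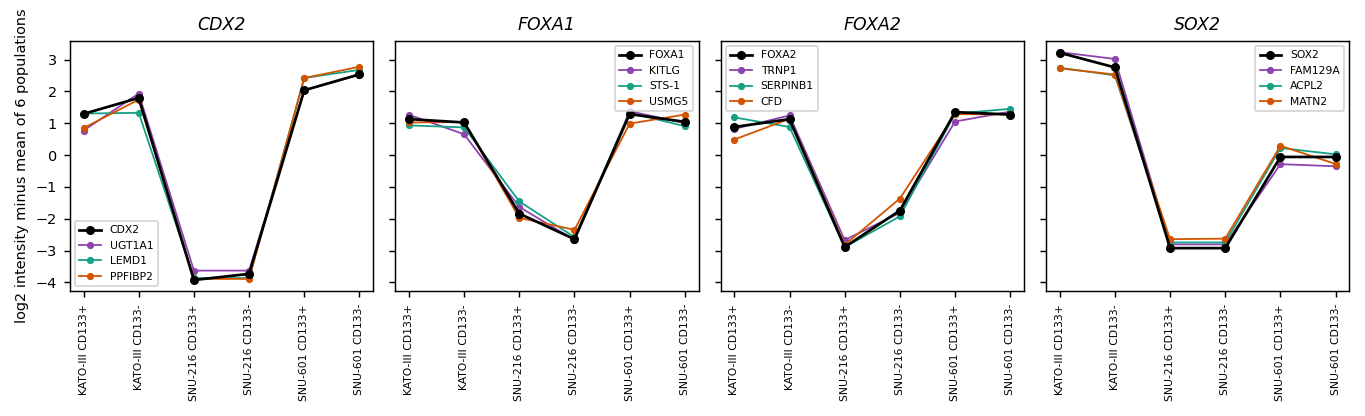
Mean log2 intensity of each population minus the mean of the 6 populations for CDX2, FOXA1, FOXA2 and SOX2 (black) and for the 3 genes with the smallest RMS difference from each (colours). The curves dip in SNU-216 in each panel, and in FOXA1 and FOXA2 the 2 fractions of SNU-216 stand in opposite order.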

How the data were processed

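RNA of 12 samples (6 populations, 2 arrays each) was hybridized to Illumina HT-12 v3 BeadChips. The authors deposited quantile-normalized intensities in 1 table with a row per gene symbol, after use of BeadStudio per the labels. The table holds 34688 rows, with 93 that have no value on any array, and since 32.1% of the deposited intensities do not exceed 0, a background was subtracted before. The rule that joined several probes into 1 row is not given in the sources used here, and the number of arrays limits the precision.

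Samples were grouped by the titles of the arrays. Log2 of intensities over the floor was fitted with limma 3.58.1 in R 4.3.3 (trend, empirical Bayes), with a mean for each population (6 residual degrees of freedom) for comparisons within and between lines and for the interaction, and with line as a block (8 residual degrees of freedom) over the lines. The floor replaced a plain log2 since many values are below 0. Tables, ratios and motif searches were made in Python 3.11.15 with numpy 2.4.6 and pandas 2.3.3, and figures with matplotlib 3.10.9. The fits were tested on simulated data. Alternatives covered the floor, the filter, the normalization, the trend, the replicate number as a block, averaging of arrays and leaving out each array.

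The factors and the gene lists were chosen with earlier results of these data known. Named genes were the 8 factors, PROM1, the 3 nearest profiles of each tested factor, the called list genes with the largest difference in each direction within each line, and that with the largest absolute difference between each pair of lines. CDHR5 had no row under that symbol.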

Additional observations from a re-analysis of the deposited data

Results flagged for a closer look

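For FOXA1 and FOXA2 the difference between CD133+ and CD133- cells itself differed between the lines, by the interaction of line and fraction in limma, where 44.4% of all tested genes were called. For FOXA2 the adjusted p was 2.75e-05, with log2 differences of -1.15 in SNU-216, -0.24 in KATO-III and 0.08 in SNU-601. For FOXA1 it was 0.000327, with 0.80, 0.11 and 0.24 in the same order of lines. For HNF4A the interaction also passed, at 0.0390, but it sets 0.55 in KATO-III against arrays that are all at the floor in the other lines, where no difference could be measured, so it does not show that the lines differ. The FOXA1 and FOXA2 calls were kept with each of the 12 arrays left out, and the HNF4A call in 7 of 12, with adjusted p between 0.00403 and 0.102. It was lost without replicate 2 of KATO-III CD133- (0.102) and without each of the 4 SNU-601 arrays (0.0543 to 0.0556), and with an offset of 100 (0.243). Groups of 2 arrays were not searched for outlying arrays.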

How the results depend on the processing

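Between lines, with a floor of 100, 4 of the factors were called for KATO-III against SNU-216, as were 10429 of 13929 genes. With genes above the floor on all 12 arrays, which left 3 factors to test, 3 were called there, 1 for KATO-III against SNU-601, 3 for SNU-216 against SNU-601, 1 between the fractions of KATO-III and 1 between those of SNU-601. Of the 11674 genes tested then, 8610, 8495, 8415, 6293 and 3073 were called, in that order. In SNU-601, 1 was called with a floor of 16 and 1 without a trend, as were 2939 of 23261 and 2748 of 20147 genes. Over the lines, 0 were called with a floor of 16, with the population as a random block or with the arrays averaged, and 2, CDX2 and FOXA1, with an offset of 100 or median centring. Those settings called 807, 1, 0, 1174 and 1010 genes in that order, of 23261 tested with a floor of 16 and 20147 otherwise. With a floor of 100 the call over the lines was FOXA1 in place of CDX2, and 1147 of 13929 genes were called. The SNR, when averaged over lines, passed for 5 factors and for 33.4% of all genes. The cause of these changes was not tested, apart from the smaller number of factors tested.

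Replicate numbers did not pair the arrays, as deviations of same-numbered arrays correlated between -0.01 and 0.03 over 15 pairs of populations. With the replicate block, 0 factors were called over the lines (CDX2 adjusted p = 0.0533), and HNF4A lost its interaction call (0.0585). Of all tested genes, 471 were called over the lines and 8837 in the interaction.

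When each array was left out in turn, the calls between fractions ran from 2 to 4 in KATO-III, from 0 to 2 in SNU-601 and from 0 to 1 over the lines and stayed at 2 in SNU-216. The interaction calls ran from 2 to 3 and the KATO-III against SNU-216 calls from 6 to 7, with 5 for KATO-III against SNU-601, 6 for SNU-216 against SNU-601 and 0 past the SNR threshold throughout. Among all tested genes, the interaction calls ran from 8098 to 8371 and the KATO-III against SNU-216 calls from 11914 to 12436. Those of KATO-III against SNU-601 ran from 11201 to 11736 and those of SNU-216 against SNU-601 from 11019 to 11293. Values near 0 changed sign. GATA6 ran from -0.13 to 0.35 in KATO-III, from -0.59 to 0.38 in SNU-216, from -0.38 to 0.15 in SNU-601 and from -0.15 to 0.091 over the lines, SOX2 in SNU-601 from -0.19 to 0.19, and GATA4 over the lines from -0.063 to 0.064. SOX2 in SNU-601 was -0.0013 with the offset. GATA4 over the lines was 0.089 with a floor of 16, 0.0092 with a floor of 100, 0.11 with the offset and 0.00084 with median centring. Of the log2 differences of single factors, with interactions left out, 491 kept direction and side of the threshold, 23 lost a call, 1 gained a call and 13 changed sign with an array left out, and 375, 13, 5 and 5 did so under the other alternatives. Signal near the floor limits CDX2 and GATA6 in SNU-216 and HNF4A in every line.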
